A study of Rattus norvegicus with 66 samples.

Results

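The genes described here build the extracellular matrix of the brain and its condensed form, the perineuronal net. There were 10 of them among the 37777 rows of the count files: the lecticans Acan, Bcan, Ncan and Vcan, the link proteins Hapln1 and Hapln4, the tenascins Tnr and Tnc, and the hyaluronan synthases Has2 and Has3. They were taken by symbol from the gene map deposited with the counts, without regard to their measured values. Each was detected in every pup, and the lowest of the 640 values was 23 counts.

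RNA was sequenced from the dorsal hippocampus, with a small part of the laterally adjacent neocortex, of 64 Long Evans rat pups on PND 6 (postnatal day 6). The pups, 41 males and 23 females, fell into 13 groups. Dams received Aroclor 1254, a commercial mixture of polychlorinated biphenyls, or bisphenol A in chow from before mating through lactation, or chlorpyrifos, an organophosphate insecticide, by subcutaneous injection during pregnancy and lactation. Aroclor 1254 (Aro5 and Aro0.5) and bisphenol A (BPA5 and BPA0.5) were each given at 5 or 0.5 mg/kg, and chlorpyrifos at 3 or 1 mg/kg (CPF3 and CPF1). CONF pups were the feeding controls and CONSC pups the injection controls. Among males there were 4 CONF, 5 CONSC, 6 Aro5, 7 BPA5 and 7 CPF3 pups and 4 pups at each low dose. Among females there were 5 CONF, 5 CONSC, 5 Aro5, 4 BPA5 and 4 CPF3 pups, and the low-dose libraries analysed here were all from males. Dams fed a chemical and feeding controls had soy-free chow. The vehicle of the injection controls is saline in the labels and dimethyl sulphoxide in the study's methods. Exposure reached the pups through their dam, so litter mates shared it, and most litters gave at most 1 pup of each sex.

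Lecticans are core proteins that carry chondroitin sulphate chains and bind hyaluronan, a long sugar polymer made at the cell surface by the Has enzymes. Link proteins lock that binding, and tenascins tie lectican ends together, so that a lattice forms around cells. In the rodent hippocampus the matrix changes over the first postnatal weeks from a juvenile form rich in versican, neurocan and tenascin-C to an adult form with aggrecan, brevican and tenascin-R in nets around parvalbumin neurons.

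The promoters of 8 of the 10 genes were matched by symbol in the RefSeq promoter table of GRCr8, a later rat build than the Rnor_6.0 of the counts. Those of Has2 and Has3 were not matched. The 250 bases before the start are shown for 2 pairs of genes that varied together between pups, Bcan with Hapln4 and Vcan with Tnc, read 5′ to 3′ on the gene's strand. Capitals mark a Sox core (ACAAT or ATTGT on the other strand) and an octamer (ATGCAAAT or ATTTGCAT).
Bcan, chr2:175765315-175765564, minus strand: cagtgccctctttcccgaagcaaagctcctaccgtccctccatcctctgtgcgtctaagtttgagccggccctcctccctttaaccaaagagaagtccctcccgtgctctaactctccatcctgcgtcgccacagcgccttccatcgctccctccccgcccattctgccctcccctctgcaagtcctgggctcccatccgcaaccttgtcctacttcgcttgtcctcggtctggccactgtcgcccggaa
Hapln4, chr16:19375174-19375423, minus strand: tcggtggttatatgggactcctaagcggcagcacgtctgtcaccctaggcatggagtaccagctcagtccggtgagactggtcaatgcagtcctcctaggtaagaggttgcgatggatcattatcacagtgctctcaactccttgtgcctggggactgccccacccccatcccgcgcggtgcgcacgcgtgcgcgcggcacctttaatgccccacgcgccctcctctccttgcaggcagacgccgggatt
Vcan, chr2:22595956-22596205, minus strand: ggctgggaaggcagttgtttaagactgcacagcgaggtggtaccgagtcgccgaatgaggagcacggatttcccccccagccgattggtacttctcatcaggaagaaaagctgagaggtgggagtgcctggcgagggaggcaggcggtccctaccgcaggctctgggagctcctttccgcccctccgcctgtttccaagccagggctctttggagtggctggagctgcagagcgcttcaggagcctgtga
Tnc, chr5:82476132-82476381, minus strand: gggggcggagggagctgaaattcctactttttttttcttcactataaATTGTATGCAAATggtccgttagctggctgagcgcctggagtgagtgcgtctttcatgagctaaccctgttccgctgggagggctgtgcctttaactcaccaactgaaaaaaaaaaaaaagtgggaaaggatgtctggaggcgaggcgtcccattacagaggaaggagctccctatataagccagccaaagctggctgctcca
In the Tnc window the Sox core and the octamer lay side by side without overlap. A Sox core was present in 30.0% of 33469 promoter windows and an octamer in 1.56%. The Sox core was also found once in the Tnr window, and neither motif was found in the windows of the other matched members. The G and C content was 61.2% for Bcan, 61.2% for Hapln4, 61.6% for Vcan and 49.6% for Tnc, beside a median of 51.2% over all windows. In the annotation Ncan was the neighbour of Hapln4, Vcan of Hapln1, Bcan of Hapln2 and Acan of Hapln3.

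The 66 libraries held 10644138 to 86206550 counts (median 20740700). The titles of the libraries had 2 forms, here A and B, whose meaning the labels do not give: in males the pup mark was a capital Y (A) or a small y (B), and in female controls a low line after the group stood (A) or was missing (B). In males every high-dose library (20 of 20) had form B, while 9 of 10 control and all 12 low-dose libraries had form A, so form and high dose cannot be told apart in males except through the single control pup with both forms. Among control females 5 libraries had form A and 6 had form B. The titles of the 13 treated female libraries do not tell the forms apart. Both control pups with 2 libraries were analysed with their counts summed. The male CONF pup N2-2y had libraries that differed by a median of 0.270 in absolute log2 CPM over 14702 genes, more than 8 of 9 pairings of either library with the libraries of other CONF males. The titles give both to 1 pup, and whether they came from the same animal was not tested. The libraries of the female CONF pup N4-3x differed by 0.0888, less than all 14 such pairings. The summed level of 6 thalamic markers ran from 126 to 1276 CPM (counts per 1000000 counts of a pup), that of 5 neocortical markers from 131 to 739.7 CPM and that of 5 choroid plexus markers from 749 to 4489.9 CPM. Of 5 hippocampal subfield markers, Prox1 of dentate granule cells was at 22.9 to 182 CPM, and Fibcd1, a marker of CA1, had 0 counts in all 64 pups. Col1a2 also had 0 counts in every pup, while Col1a1, its partner in collagen I, was at 39.9 to 126 CPM, so a row at 0 is not read here as absence of the transcript. In such bulk tissue fewer cells of a type and less RNA per cell cannot be told apart.

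Levels are given as CPM without correction for gene length, so they are compared between pups and not between genes. Acan encodes aggrecan, the lectican of mature nets. Over all pups it stood at 4.41 ± 0.92 CPM (SD, n = 64), from 1.68 to 6.45 CPM. Its group means lay within 1.31-fold of each other. Bcan encodes brevican, which in adults surrounds synapses and nodes of Ranvier. It stood at 202 ± 42.9 CPM, from 111 to 321 CPM, and its group means ran from 158 ± 37.6 CPM in BPA0.5 males (n = 4) to 251 ± 9.81 CPM in CONF females (n = 5). All 5 female groups had higher Bcan means than all 8 male groups, while single pups overlapped, with 182 CPM in a BPA5 female and 251 CPM in a BPA5 male. Ncan, which encodes neurocan, a secreted lectican of growing axon tracts, varied least between group means (1.25-fold), at 625.3 ± 87.0 CPM. Vcan encodes versican, the lectican of the juvenile matrix and of oligodendrocyte precursors. Its level was 124 ± 19.3 CPM, and its means ran from 108 ± 16.9 CPM in Aro0.5 males to 141 ± 24.0 CPM in CPF3 males.

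Among the link proteins, Hapln1, the general one that stabilises lecticans on hyaluronan, was at 34.8 ± 9.72 CPM and ran from 10.2 CPM in a CPF3 male to 63.5 CPM in an Aro5 male. Hapln4, or Bral2, which pairs with brevican in nets of the adult hindbrain, was at 3.61 ± 1.65 CPM and ran from 1.51 to 11.7 CPM. It had the widest spread within groups, a median coefficient of variation of 34.0%. That of Ncan, the narrowest, was 11.4%. Of the tenascins, Tnr, made by oligodendrocytes and some neurons, was at 36.3 ± 11.5 CPM, and its means ran 1.89-fold, from 24.2 ± 5.54 CPM in Aro0.5 males to 45.7 ± 14.0 CPM in Aro5 males. Tnc, made by immature astrocytes and radial glia, was at 232 ± 44.4 CPM and its means lay within 1.34-fold. Has2 makes very long hyaluronan chains, and stood at 3.72 ± 1.17 CPM. Has3 makes shorter chains, and stood at 40.8 ± 8.25 CPM. The lowest Has2 mean was in CONSC females (2.78 ± 0.823 CPM) and the highest in Aro5 males (4.79 ± 1.72 CPM). When the 13 group means of each member were put in order, neighbouring groups lay closer than the smaller of their SDs in all but 2 of 120 steps, 1 for Acan (Aro0.5 and BPA5 males) and 1 for Tnr (Aro0.5 and CPF1 males). Ordering makes such steps small, so this count does not tell whether groups differed.

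**Figure D1:**
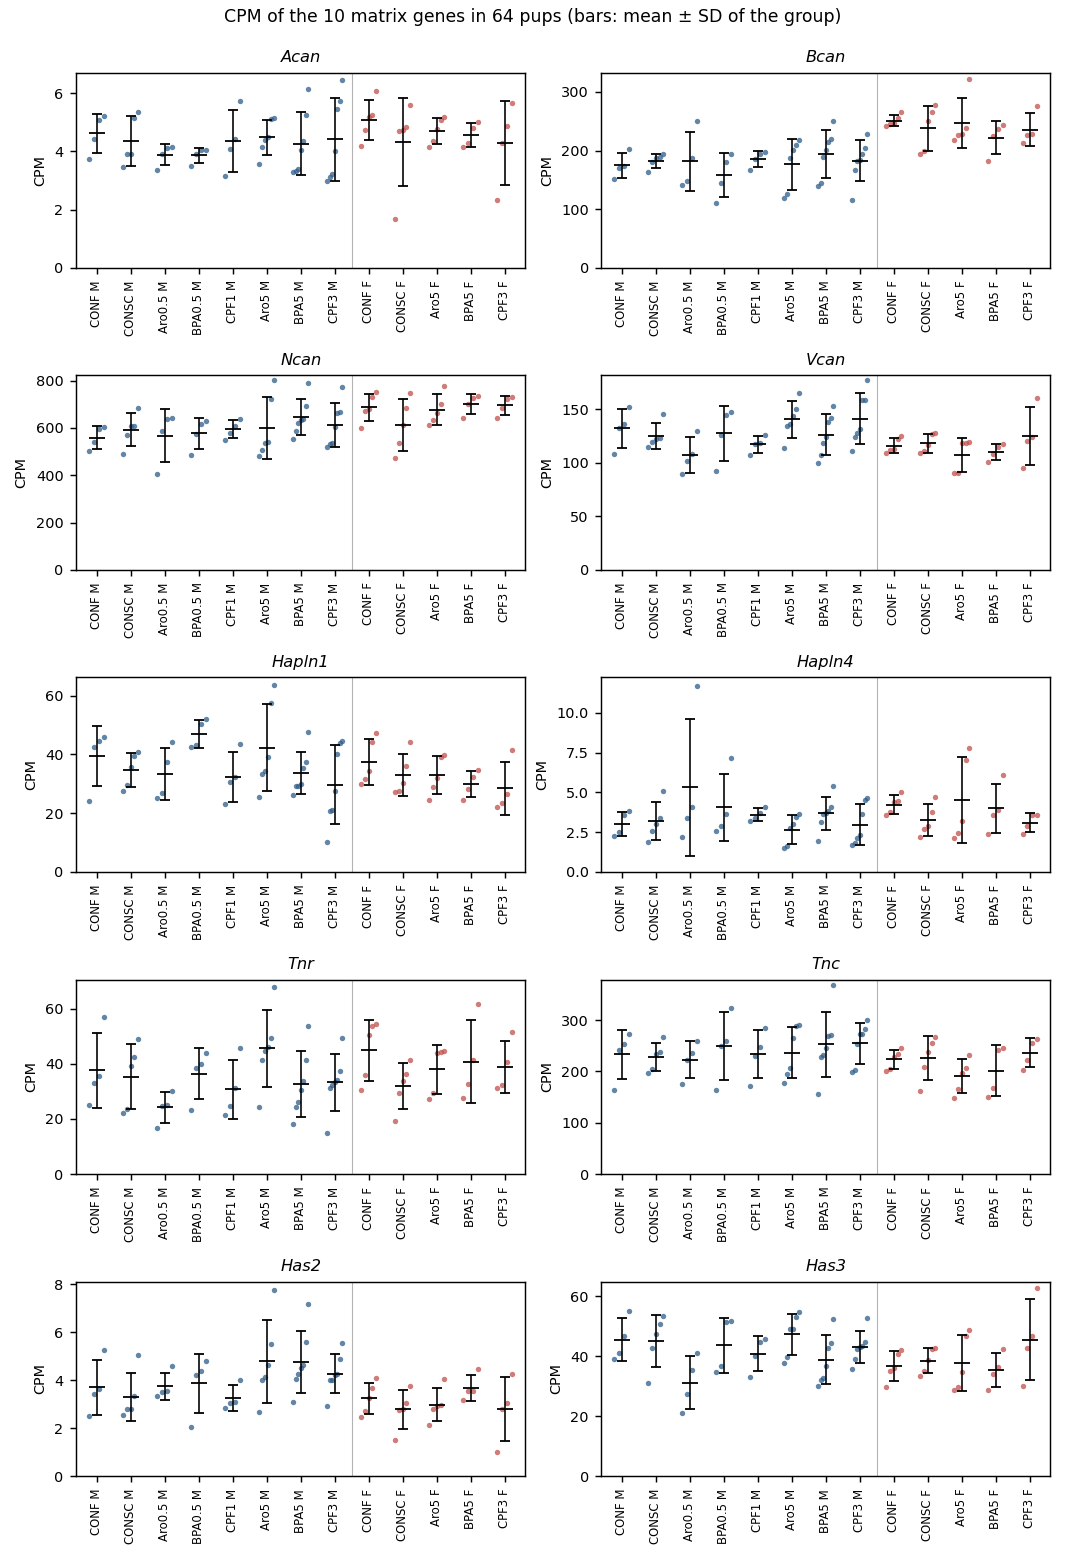
CPM of the 10 matrix genes in each of the 64 pups, by group, with a panel per gene, blue points for males, red points for females and bars for the group mean ± SD. The means of the 5 female groups lie above those of the male groups for Bcan, while single pups overlap (182 CPM in a BPA5 female, 251 CPM in a BPA5 male); Hapln4 of 1 Aro0.5 male stands at 11.7 CPM.

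The first question was whether exposure changed the matrix genes. Treated pups were compared with controls of their sex, CONF and CONSC combined, with the quasi-likelihood test of edgeR. P-values were adjusted over all genes tested (Benjamini-Hochberg), and an adjusted p under 0.05 counted as a call. None of the 10 members passed in any of the 9 treated groups. In Aro5, BPA5 and CPF3 males 0.195%, 0.189% and 0.159% of all genes passed, in Aro0.5, BPA0.5 and CPF1 males 0.124%, 0.0434% and 0.0%, and in the 3 female comparisons 0.0%. With DESeq2 the count of members was 0 as well, with a lowest adjusted p of 0.0810 in Aro0.5 males. At an unadjusted p under 0.05 edgeR gave 6 of the 90 member values. Of all genes, the high doses brought 11.8% (Aro5), 9.1% (BPA5) and 12.6% (CPF3) under that limit in males and 3.23%, 4.08% and 8.79% in females, while Aro0.5 did so for 18.5%, BPA0.5 for 8.58% and CPF1 for 2.0% of genes. The comparisons of a sex and fit share their controls.

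The fitted log2 fold changes ran from -0.53 (Tnr, Aro0.5 males) to 0.87 (Hapln4, Aro0.5 males), and 87 of 90 had a 95% interval within 2-fold of the controls. All 9 intervals of Acan, Bcan, Ncan, Vcan and Tnc stayed within 1.5-fold. That held for 8 intervals of Has3, 5 of Hapln1, 5 of Tnr, 3 of Has2 and 1 of Hapln4. Ncan had a fitted value above the controls in all 9 comparisons, by 0.03 to 0.17 on the log2 scale, none of which passed; with the name form as a covariate it was -0.06 in Aro5 males and -0.02 in CPF3 males.

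**Figure D2:**
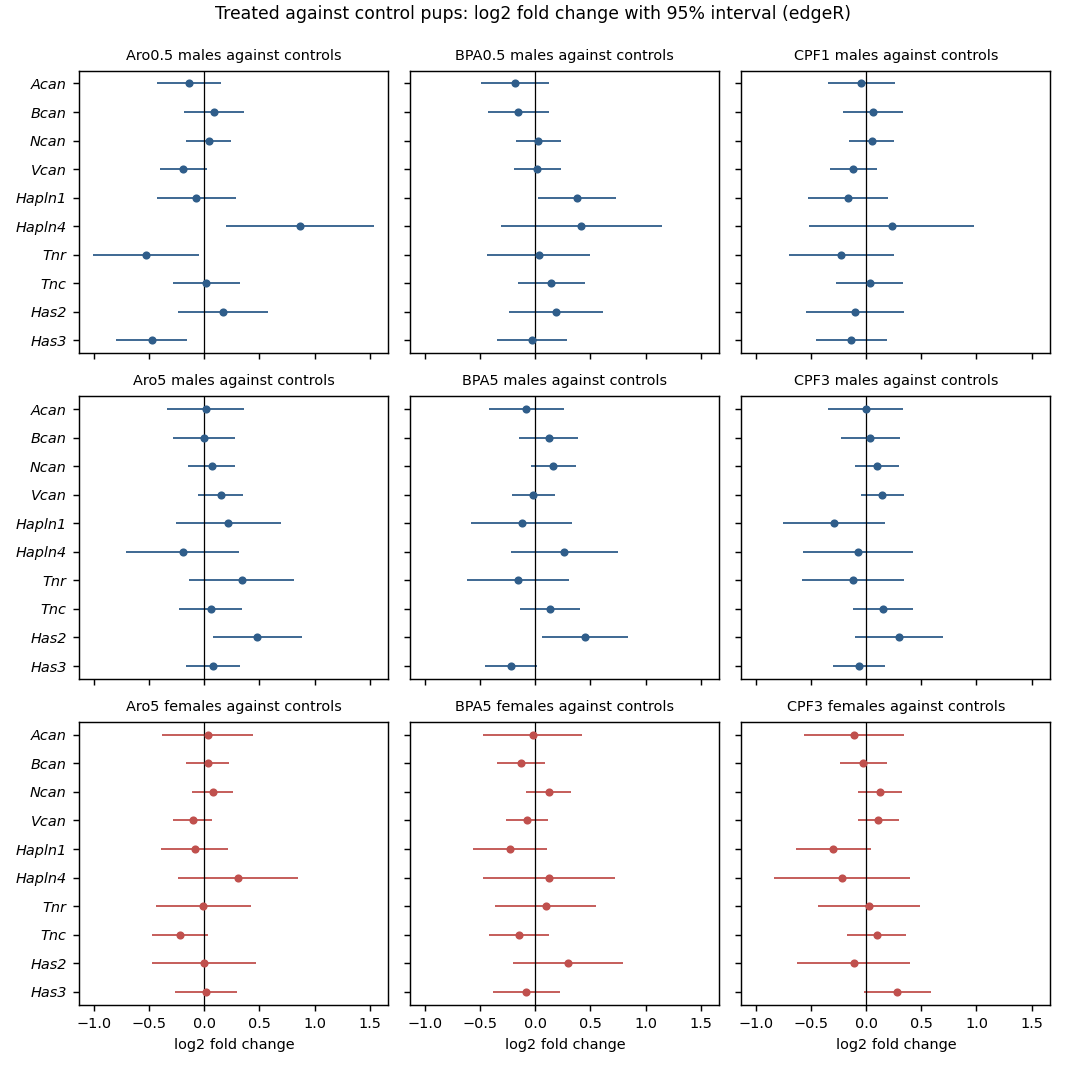
Fitted log2 fold change of each matrix gene against the controls of the same sex in the 9 treated groups, a panel per group, with 95% intervals from edgeR. No member passed adjusted p 0.05, and the widest intervals are those of Hapln4, with the highest value of 0.87 in Aro0.5 males.

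Has2 gave the higher values in males at the high doses. It was at 2.69 CPM (lowest), 4.38 CPM (median) and 7.77 CPM (highest) in Aro5 males, at 3.11, 4.50 and 7.17 CPM in BPA5 males and at 2.91, 4.21 and 5.56 CPM in CPF3 males. The CONF males had 2.52 to 5.28 CPM and the CONSC males 2.55 to 5.04 CPM, so all groups overlapped. The fitted log2 difference was 0.48 in Aro5 males (SE 0.20, 95% interval 0.08 to 0.89, unadjusted p = 0.0217, edgeR adjusted p = 0.324). It was 0.45 in BPA5 males (edgeR adjusted p = 0.521) and 0.30 in CPF3 males (edgeR adjusted p = 0.524). When each pup was left out, Has2 ran from 0.28 to 0.59 in Aro5 males (edgeR adjusted p 0.0967 to 0.566). It ran from 0.32 to 0.54 in BPA5 males and from 0.22 to 0.39 in CPF3 males. With only pups dissected within the hours the study states it was 0.70 (edgeR adjusted p = 0.0867), 0.55 and 0.35. With the name form as a covariate the Has2 values were 0.69, 0.66 and 0.50. That fit rests on the form B library of pup N2-2y, the only male control library of that form. The part of the name form in these values was not tested beyond that; Has2 of pup N2-2y was at 3.82 CPM in its form A library and 3.04 CPM in its form B library, with the same doubt about the pup's libraries.

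The Aro0.5 males, 4 pups, held the most members at an unadjusted p under 0.05. Has3 was at 20.9 to 40.9 CPM there and at 31.0 to 55.1 CPM in control males (log2 difference -0.48, unadjusted p = 0.00563, edgeR adjusted p = 0.149). Tnr was at 16.8 to 30.2 CPM against 22.3 to 57.0 CPM (log2 difference -0.53, edgeR adjusted p = 0.235). Both ranges overlap those of the controls. Hapln4 had values of 2.19 to 11.7 CPM, and its log2 difference of 0.87 (edgeR adjusted p = 0.190) became 0.10 (edgeR adjusted p = 0.904) without pup 98-8y, which held the highest value of all pups. In the same comparison the markers of neocortex had a median log2 difference of -0.42, those of choroid plexus -0.79 and those of thalamus 0.66. The summed thalamic level was 709 to 1219.8 CPM in the Aro0.5 males (median 1110) and 435 to 1276 CPM in control males (median 594), with no marker of these lists called. Their part in the member values was not tested. Of BPA0.5 males, Hapln1 had 42.6 to 51.95 CPM (log2 difference 0.38, edgeR adjusted p = 0.544), and no CPF1 value reached an unadjusted p under 0.05. The female groups also held none for any member.

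Contrasts between the chemicals, at the high dose in males, and between the control routes addressed whether agents or injection differed. The doses of Aro5 and BPA5 were matched at 5 mg/kg, while CPF3 was given at 3 mg/kg by another route. No member passed in the 3 chemical pairs, where 0.0% of all genes did. At an unadjusted p under 0.05 there was 1 member for Aro5 against BPA5 (4.4% of all genes), 1 for Aro5 against CPF3 (4.17%) and 0 for BPA5 against CPF3 (2.7%), and DESeq2 called 0. These members were Has3 in Aro5 above BPA5 (log2 0.30, edgeR adjusted p = 0.818) and Hapln1 in Aro5 above CPF3 (log2 0.51, edgeR adjusted p = 0.943). CONF and CONSC pups differed in no member either, by edgeR or DESeq2, beside 0.013% of all genes in males and 0.0% in females by edgeR. At an unadjusted p under 0.05 it was 0 members in males (0.988% of all genes) and 1 in females (4.29%). The latter was Tnr, at 30.5, 35.8, 50.5, 53.8 and 54.3 CPM in CONF females and 19.3 to 41.4 CPM in CONSC females (log2 difference 0.50, 95% interval 0.05 to 0.95, edgeR adjusted p = 0.850).

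The second question was whether the sexes differed and whether they responded differently. Bcan was the only member called between control females and control males. It was at 241, 245, 247, 256 and 266 CPM in CONF females and 194, 200.1, 251, 266 and 278 CPM in CONSC females. In CONF males it was at 152, 170.0, 174 and 203 CPM, and in CONSC males at 163, 181, 187, 188 and 195 CPM. Of the 10 control females 8 lay above the highest control male, and the ranges met only through a pair of CONSC females. Mean levels were 245 ± 27.3 CPM (n = 10) and 179 ± 16.0 CPM (n = 9), a log2 difference of 0.48 (SE 0.11, 95% interval 0.26 to 0.70, unadjusted p = 6.85e-05, edgeR adjusted p = 0.000828). In this comparison 27.1% of all genes passed, so 1 called member of 10 was below the share of all genes.

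Ncan and Has3 came nearest among the others. Ncan was at 474 to 751 CPM in control females (median 676) and 491 to 686 CPM in control males (median 594). Its log2 difference was 0.20 (95% interval 0.02 to 0.38, edgeR adjusted p = 0.0851). It was 0.03 within the libraries called form A in each sex. It passed at 0.26 without CONSC female pup 9-1x (edgeR adjusted p = 0.0153) and at 0.24 without CONSC female pup 13-8x (edgeR adjusted p = 0.033). Has3 was at 29.7 to 42.7 CPM in control females and 31.0 to 55.1 CPM in control males, a log2 difference of -0.24 (95% interval -0.47 to -0.01, edgeR adjusted p = 0.111). The intervals of Tnc (-0.24 to 0.23), Vcan (-0.27 to 0.06) and Hapln1 (-0.39 to 0.33) spanned 0, as did those of Acan (-0.24 to 0.42), Tnr (-0.29 to 0.52), Has2 (-0.56 to 0.20) and Hapln4 (-0.17 to 0.77).

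The sex difference was also taken by name form. Within the control libraries called form A in each sex the Bcan difference was 0.42 (edgeR adjusted p = 0.0452). Form A rests on a different title mark in each sex, and whether it means the same in both is not known. Form B against form A among female control libraries gave 0.19 for Bcan (edgeR adjusted p = 0.237) and 0.34 for Ncan (edgeR adjusted p = 0.0740), with 0 members called beside 1.43% of all genes, and both members under an unadjusted p of 0.05 beside 18.7%. The libraries of pup N2-2y held 120.1 CPM of Bcan in form A and 216 CPM in form B, a 1.80-fold gap that was larger than the fitted sex ratio of 1.39. As both libraries of this pup differed over many genes, the gap cannot be read as one between forms. Without this pup the sex difference was 0.48 (edgeR adjusted p = 0.00162), and it was called in all 19 fits that left out a control pup, at 0.46 to 0.53.

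Litter mates allowed the sexes to be set side by side within a dam. In 18 litters with pups of both sexes, the sister had more Bcan than the brother in 16, in 7 of 7 control litters and 9 of 11 treated ones. The median sister had 130.2% of the brother's level. The exceptions were both BPA5 litters, with 182 CPM in the sister and 189 CPM in the brother and with 237 and 251 CPM. In the other BPA5 litter with both sexes the values were 225 and 220 CPM. The widest gap was in Aro5 litter 120, with 119.7 and 125.3 CPM in its brothers and 321 CPM in the sister. For Ncan the sister was higher in 13 of 18 litters. For Vcan the sister was higher in 5 of 18, 1 of 11 treated litters among them, and the remaining members had 6 to 10 of 18. Several of these pups also stand in the control comparison above, so the counts are a description.

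**Figure D3:**
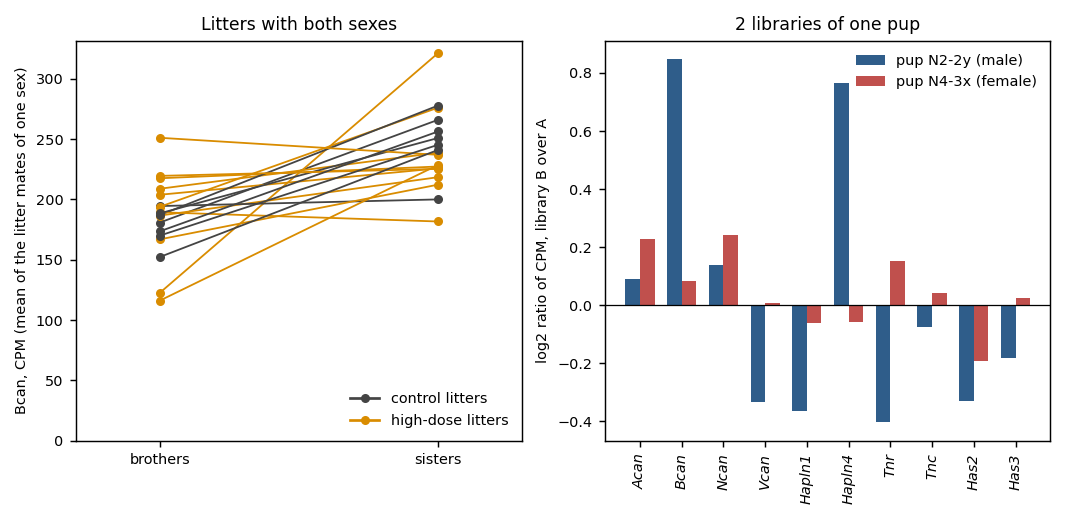
Left, Bcan CPM of brothers and sisters in 18 litters, with a line joining the values of each litter, dark for control and orange for high-dose litters. The line rises from brothers to sisters in 16 litters. Right, log2 ratio of the form B to the form A library for the 10 genes in both pups with 2 libraries; Bcan was at 120.1 (A) and 216 CPM (B) in male N2-2y and at 251 and 266 CPM in female N4-3x.

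In treated pups the sex contrast was taken in the same fit, an addition made after the data were seen. Between Aro5 females and males 4 members passed, 2 higher and 2 lower in females, beside 30.3% of all genes (13.8% higher, 16.5% lower): Bcan (log2 0.50, edgeR adjusted p = 0.00767), Hapln4 (0.78, edgeR adjusted p = 0.0372), Vcan (-0.37, edgeR adjusted p = 0.00905) and Has2 (-0.68, edgeR adjusted p = 0.0285). Litter 120 gave 2 of the 6 Aro5 males and 1 of the 5 Aro5 females. Its brothers had the lowest Bcan (119.7 and 125.3 CPM) and the highest Vcan (165.8 and 150.9 CPM) of the Aro5 males. The highest Has2 of these males (7.77 CPM) was in 1 of them. Its sister had the highest Bcan (321 CPM) and Hapln4 (7.76 CPM) of the Aro5 females. The part of this litter in the 4 calls was not tested. No member passed in BPA5 pups, beside 5.55% of all genes, or in CPF3 pups, beside 12.3%. Unadjusted p-values under 0.05 were 0 in BPA5 pups (20.5% of all genes) and 2 in CPF3 pups (28.3%), those of Bcan and Has2. There Bcan was 0.23 (edgeR adjusted p = 0.409) and 0.41 (edgeR adjusted p = 0.0592) higher in females on the log2 scale. For the mean over the 4 conditions Bcan (0.40), Ncan (0.19) and Hapln4 (0.35) were called higher and Vcan (-0.19) and Has2 (-0.45) lower in females, 5 of 10 beside 50.3% of all genes. No member passed in the sex by treatment interactions by edgeR or DESeq2, where 0.0984% (Aro5), 0.0405% (BPA5) and 0.0463% (CPF3) of all genes did by edgeR. None had an unadjusted p under 0.05 either, beside 8.92%, 2.79% and 5.6% of all genes. The nearest was Vcan under Aro5 (female response minus male response -0.27, 95% interval -0.54 to 0.01, edgeR adjusted p = 0.572). All high-dose male libraries had form B, and the titles of the treated female libraries do not tell the forms apart. Any part of the name form in the contrasts and interactions of this paragraph therefore cannot be told apart from sex and dose.

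Cell type markers of some lists also differed between control females and control males. The summed level of 5 oligodendrocyte precursor markers was 383 to 495 CPM (median 437) in control females and 355 to 458 CPM (median 405) in control males. Of these Sox10 (log2 0.57, edgeR adjusted p = 0.000514) and Olig1 (0.48) were called higher and Pdgfra (-0.22) lower. Of 5 excitatory neuron markers 3 were called higher in females, Tbr1 (0.96), Neurod2 (0.83) and Camk2a (0.46). Of all genes in this contrast 14.6% were called higher and 12.4% lower in females. None of 6 astrocyte markers was called. The summed thalamic level overlapped, at 403 to 1078 CPM in females and 435 to 1276 CPM in males. The median of the summed meningeal fibroblast markers was 180 CPM in control females and 137 CPM in control males. That of dividing cells was 98.6 and 111 CPM, and the remaining lists are not given here. The part of these markers in the Bcan value was not tested.

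The ratio of Bcan to Vcan counts within a pup, which no library scaling changes, is given with no test. It averaged 1.42 ± 0.228 in control males (n = 9; 1.11 to 1.64) and 2.09 ± 0.276 in control females (n = 10; 1.57 to 2.55). The ranges shared only the span from 1.57 to 1.64. Over all pups it was 1.45 ± 0.420 in 41 males and 2.11 ± 0.428 in 23 females, with a highest value of 3.55 in the Aro5 sister of litter 120. Control male N2-2y stood at 1.12 with its libraries summed. Its Bcan and Vcan counts were 1979 and 2803 in the form A library and 3839 and 2396 in the form B library. The doubt about this pup's libraries thus holds for the ratio too. The ratio of Tnr to Tnc, the adult over the juvenile tenascin, was 0.156 ± 0.037 in control males and 0.174 ± 0.057 in control females. It was lowest in Aro0.5 males (0.110 ± 0.027, n = 4) and had its widest spread in BPA5 females (0.222 ± 0.131, n = 4).

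**Figure D4:**
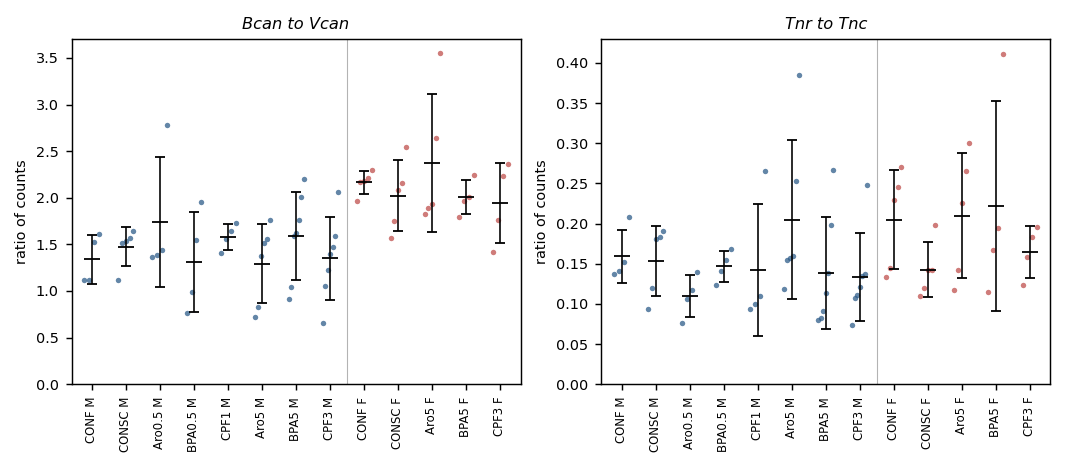
Ratio of Bcan to Vcan counts and of Tnr to Tnc counts in each pup by group, blue for males and red for females, with the group mean ± SD. Bcan to Vcan averages 1.42 in control males and 2.09 in control females, while the Tnr to Tnc values of the sexes overlap.

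The members also varied from pup to pup within groups, and some varied together. Correlations were taken over the 64 pups on log2(CPM + 0.5) after subtraction of each group mean, and p-values came from 100000 permutations of pups within groups, adjusted over the 45 pairs. The smallest p these permutations can give is 1e-05, and litter mates among the pups are not fully independent. Of 45 pairs 18 passed, 14 with a positive and 4 with a negative r. Vcan and Tnc had r = 0.64 (rho 0.66, permutation p = 1e-05, adjusted 0.00015) and r = 0.61 without the 2 pups farthest from the median. Tnc and Has2 had r = 0.61 (rho 0.64, adjusted permutation p = 0.00015; 0.55 without the farthest pups), and Vcan and Has2 r = 0.53 (rho 0.53, adjusted permutation p = 0.00191; 0.49). These are a juvenile lectican, the juvenile tenascin and a hyaluronan synthase. Vcan also passed with Has3 (r = 0.48, rho 0.43, adjusted permutation p = 0.00461) and with Tnr, the adult tenascin (r = 0.38, rho 0.34, adjusted permutation p = 0.0143). Ncan, also of the juvenile form, passed with Tnc (r = 0.48, rho 0.45, adjusted permutation p = 0.00191) but not with Vcan (r = 0.10).

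Bcan and Hapln4, the link protein that binds it, had r = 0.61 (rho 0.64, adjusted permutation p = 0.00015), and 0.67 without the 2 farthest pups. Bcan and Ncan had r = 0.51 (rho 0.47, adjusted permutation p = 0.00385; 0.50). Hapln1 and Tnr had r = 0.56 (rho 0.47, adjusted permutation p = 0.000675; 0.45), and Acan and Tnr r = 0.48 (rho 0.49, adjusted permutation p = 0.0018; 0.44). Of the 4 negative pairs, Vcan ran against Bcan (r = -0.47, rho -0.42, adjusted permutation p = 0.00461; -0.40) and Hapln4 (r = -0.51, rho -0.46, adjusted permutation p = 0.00191; -0.48). Has3 ran against the same members, Hapln4 (r = -0.48, rho -0.47, adjusted permutation p = 0.00461; -0.40) and Bcan (r = -0.34, rho -0.34, adjusted permutation p = 0.0373; -0.43). All 18 pairs kept their sign without the farthest pups. Within males alone Bcan and Vcan had r = -0.57 (n = 41) and within females -0.15 (n = 23), and Vcan and Has2 had 0.74 and 0.14, differences between the sexes that were not tested. Within the males of form A and of form B, 20 pups each, Bcan and Vcan had -0.44 and -0.67 and Vcan and Tnc 0.84 and 0.55.

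The same deviations were set against the summed level of 12 marker lists, 120 relations of which 37 passed after adjustment over all 120. Hapln1 followed the astrocyte markers (r = 0.82, rho 0.81, adjusted permutation p = 0.000133; 0.80 without the 2 farthest pups). Acan followed the excitatory neuron markers (r = 0.77, rho 0.75, adjusted permutation p = 0.000133; 0.70) and the neocortical ones (r = 0.68, rho 0.67; 0.65). It ran against the summed inhibitory neuron markers (r = -0.46, rho -0.39, adjusted permutation p = 0.0132; -0.40). That sum includes Pvalb, at 0.610 to 16.7 CPM, beside Gad1 at 86.9 to 285 CPM, so it says little of Pvalb itself. Tnc also ran against that list (r = -0.58), and Vcan against the microglia markers (r = -0.56), which Bcan followed (r = 0.46). Vcan followed the markers of dividing cells (r = 0.67, rho 0.66; 0.60) and Bcan those of oligodendrocyte precursors (r = 0.57, rho 0.62; 0.67). For Bcan this was 0.71 within males and 0.27 within females, a difference that was not tested. Has3 ran against the thalamic markers (r = -0.66, rho -0.69; -0.63) and followed those of choroid plexus (r = 0.60, rho 0.55; 0.56). These lists sum genes of the same libraries, and whether tissue make-up sets the values was not tested.

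**Figure D5:**
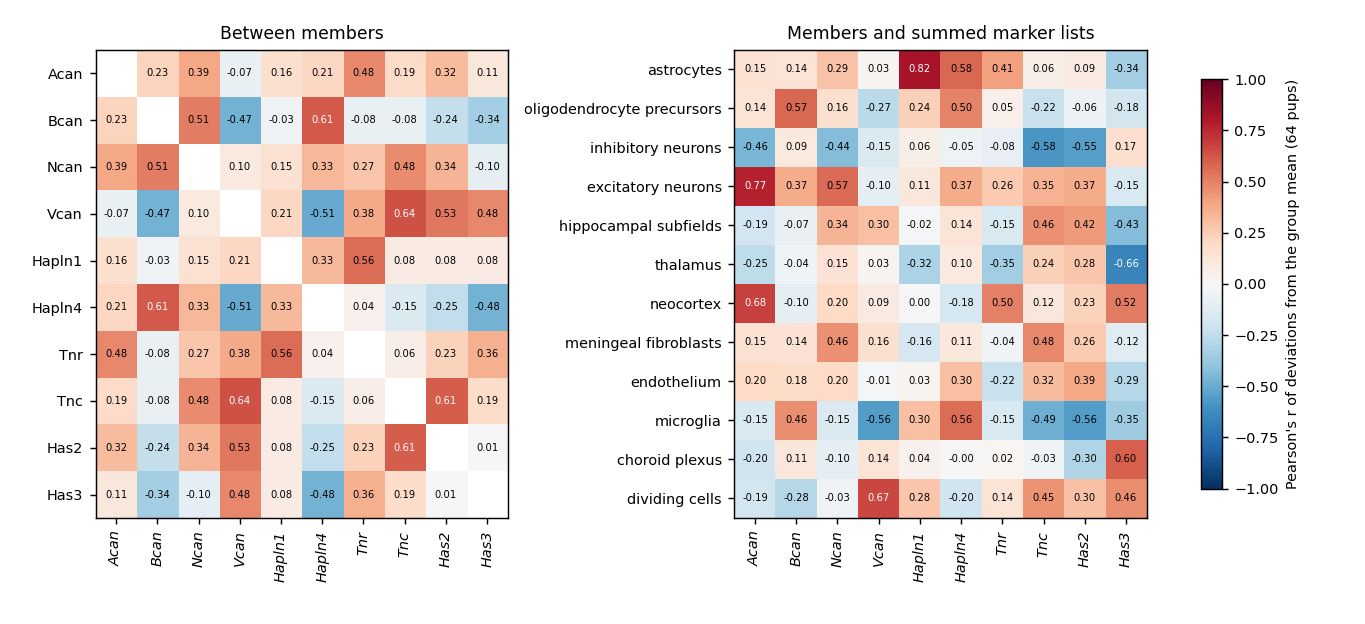
Pearson r over 64 pups of log2 CPM deviations from the group mean, between the 10 matrix genes (left) and between them and the summed level of 12 marker lists (right), with colour giving sign and size of r. Vcan with Tnc (0.64), Bcan with Hapln4 (0.61) and Tnc with Has2 (0.61) are the highest pairs of members, and Hapln1 with the astrocyte list (0.82) is the highest value on the right.

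Over the 14702 genes with a mean of at least 1 CPM, the genes whose levels were most like those of each member are described. The r values are over 64 pups that share library and depth. No group mean was subtracted here, unlike in the correlations above, so differences between sexes and groups can enter these r values. For Bcan the most alike genes were Plekhg5 (0.92), Tnk2 (0.92) and Col11a2 (0.91), and for Vcan Smchd1 (0.89) and Rad21 (0.89) were among them. For Ncan they were Flrt1 (0.79), Nhsl1 and Cyp1b1, and for Acan Sstr4 (0.84), RGD1306556 and Susd5. Hapln1 was most like S1pr1 (0.84), Epb41l2 and Rasgrp1. Hapln4 was most like Gfap (0.76), the astrocyte intermediate filament, with Entpd2 and Slc38a3 next. Tnr was most like Apc (0.89), Adcy1 and Trpm3, and Tnc most like Mamdc2 (0.80), Ddr2 and Ptx3. Has2 was most like Kcnk10 (0.83), Trim36 and Gcnt1, and Has3 most like LOC100362710 (0.88), Ssbp2 and Lmo3.

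Other genes of matrix synthesis and turnover were taken from lists of 55 genes, of which 50 were tested. None was called in the 9 treated groups. In the Aro0.5 males 15 of 50 had an unadjusted p under 0.05, where 18.5% of all genes did. Between control females and control males 10 were called higher and 1 lower in females, beside 14.6% and 12.4% of all genes, with a median log2 difference of 0.076 over the 50 and -0.024 over all genes. Of 15 chondroitin sulphate synthesis genes 5 were higher. They were Chpf (0.92) and Chpf2 (0.58), which help polymerise the chain, the sulphotransferases Chst12 (0.76) and Chst7 (0.36), and the xylosyltransferase Xylt2 (0.36). Chsy1 (-0.21), a chondroitin synthase, was lower. Of 10 genes of hyaluronan turnover and matrix receptors 4 were higher: Hyal2 (0.34), a hyaluronidase, the receptor phosphatases Ptprf (0.25) and Ptprs (0.45), the latter a receptor for chondroitin sulphate, and Rtn4r (1.18), the Nogo receptor. Mmp14 (0.21), a membrane metalloproteinase, was the 1 called of 14 proteases and inhibitors, and none of 11 matrix partners was called.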

How the data were processed

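The 66 libraries came from the hippocampal tissue of 64 rat pups (PND 6). Per the labels and the study's methods, the authors aligned reads to Rnor_6.0 with STAR and deposited raw counts per gene from featureCounts, 1 file per library, with a gene map; kallisto is also named in the submitters' processing notes, and versions, strand and multimapping settings were not given in the sources used here. Counts of the 2 pups with 2 libraries were summed. CPM is counts per 1000000 counts of a pup. Tests used edgeR 4.0.16 in R 4.3.3 (TMM scaling, filterByExpr by group, quasi-likelihood F test) on whole tables, males, females and dose levels in separate fits and both sexes in 1 fit for sex and interactions, with p-values adjusted over all genes tested; SE was taken as the absolute log2 fold change over the root of the F statistic. As alternatives DESeq2 (1.42.0) and limma (3.58.1) were run, and correlations and levels were computed in Python 3.11.15. The edgeR fits of high-dose males and of both sexes were tested on simulated counts. Group labels name separate animals, so p-values measure the spread between pups, some of them litter mates.

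By the naming rule all 10 members are covered at every comparison, in the treated ones by counts and ranges where a member has no value of its own in the text. Also named are, from other matrix lists, the genes called between control females and males, and the 3 genes most like each member, of which 1 for Vcan is not reported here. Members, lists and tests were chosen with earlier results of these data known. Where the text names another pup or marker, it was chosen after its values were seen. Alternatives were another tool, scaling or filter, leaving out each pup, the stated dissection hours, 1 pup per litter and sex, controls of 1 route, the name form and the litter as a block. Gene lengths and proteins were not used here.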

Additional observations from a re-analysis of the deposited data

Results flagged for a closer look

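Of 130 combinations of gene and group tested for a pup apart from its group (Dixon's test at 95%), 4 stood out, where chance gives about 1 in 20, or 6.5. Acan was at 1.68 CPM in CONSC female pup 9-1x, below the other 4 pups of its group at 4.70 to 5.58 CPM. Bcan was at 321 CPM in Aro5 female pup 120-3x, above 219 to 239 CPM in the others. Vcan was at 146 CPM in CONSC male pup 10-2y, above 115 to 124 CPM in the others. Hapln1 was at 24.2 CPM in CONF male pup N4-7y, below 42.6 to 46.1 CPM in the others.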

How the results depend on the processing

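The count of members called stayed at 0 for the treated, chemical, interaction and route comparisons under every alternative run. Between control females and males it was 1, by Bcan, and 1 to 2 when each pup was left out, with Ncan added without pup 13-8x or 9-1x. It was 2 for pups within the stated dissection hours, with Ncan again (log2 0.29, edgeR adjusted p = 0.0416). In contrasts added after the data were seen it was 4 for Aro5, 0 for BPA5, 0 for CPF3 and 5 for the mean of 4 conditions. The same-litter check found no shared deviation over all genes (consensus correlation -0.0061); a limma fit that took litters as the replicate block gave a sex value of Bcan of 0.47 (limma adjusted p = 0.00133), and the block changed no call of a member. No called value changed sign. Values that were not called changed sign in 12 of 70 cases with the name form as a covariate, in 16 of 90 with controls of the same route and in 229 of 2949 when a pup was left out. In high-dose males the name form as a covariate rests on the single form B control library. That fit cannot separate form from dose, and its counts over all genes are not given. The number of correlated pairs was 18 with CPM and 19 with TMM scaling.

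Counts over all genes, which set the background shares, depended on settings, and the cause was not tested. Called genes in Aro5, BPA5 and CPF3 males were 32, 31 and 26 by edgeR and 101, 63 and 82 by DESeq2. They were 818, 8 and 18 within the dissection hours and 17, 14 and 18 with same-route controls. For Aro0.5 and BPA0.5 males they were 20 and 7, by DESeq2 269 and 39, within the hours 0 and 1, with same-route controls 1 and 2, with the name form 13 and 1, and 11 for BPA0.5 with DESeq2 size factors. Treated females had 0 by edgeR and 1, 1 and 3 by DESeq2, and 119, 43 and 110 against form A controls. Interactions gave 17, 7 and 8, by DESeq2 34, 15 and 16, within the hours 609, 0 and 1, without a filter 11, 8 and 5, and for BPA5 11 in limma with or without the block. The sex contrast gave 4681, and 2003 within the libraries called form A in each sex. CONF against CONSC males gave 2, and 0 within the hours or with the name form. Leaving out a pup gave 25 to 176 (Aro5 males), 17 to 41 (CPF3 males), 0 to 322 (Aro0.5), 0 to 31 (BPA0.5), 0 to 1 (CPF3 females), 8 to 26, 0 to 12 and 3 to 11 (interactions) and 0 to 2 (CONF against CONSC males). Depth limited Acan, Hapln4 and Has2 most, with 23 to 420 counts a pup.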
